A study of Mus musculus with 12 samples.

Results

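The question addressed here is which genes responded differently to FAC in hepatocytes with and without the bile acid receptor Fxr. The quantity is the difference of 2 FAC effects, (KO FAC - KO AC) - (WT FAC - WT AC), in log2 units. It was fitted on all 12 libraries for each of the 12275 genes that passed a filter on low counts, of 16728 genes listed. No gene was chosen for its response in this test over all genes. The gene lists used below were chosen with earlier results of these data known, and named genes partly by their calls. Counts and shares over the lists are therefore descriptions. Of the 12275 genes, 387 (3.15%) had a difference called at an adjusted p under 0.05 by edgeR's quasi-likelihood test with Benjamini-Hochberg adjustment over all tested genes.

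The cells were primary hepatocytes from livers of C57BL/6 mice, either wild type (WT) or Fxr-/- (KO), kept in culture with serum. They received AC or FAC, each at 100 µM for 24 h, with 3 libraries in each of the 4 groups: WT AC (libraries 1 to 3), WT FAC (4 to 6), KO AC (1 to 3) and KO FAC (4 to 6). The series concerns iron overload, the labels give both agents only by these letters, and AC is the reference here in both genotypes. The labels do not say how the Fxr allele was made, nor whether libraries of a group came from separate animals or cultures, so p-values measure the spread between these libraries, which may be technical.

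Fxr, encoded by Nr1h4, is a nuclear receptor for bile acids that limits bile acid synthesis and raises bile acid export in hepatocytes. Hepatocytes also hold much of the body's spare iron in ferritin and secrete hepcidin, the peptide hormone that closes the iron exporter ferroportin, under the control of BMP-SMAD signalling. Excess iron promotes oxidation of lipids and proteins, and cells answer with antioxidant enzymes, chaperones and the integrated stress response.

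The targeted gene Nr1h4 still gave reads in the KO. It stood at 13, 15.6 and 13.1 CPM in WT AC, 7.0, 6.95 and 7.69 in WT FAC, 9.35, 6.97 and 7.45 in KO AC and 3.54, 4.45 and 4.89 in KO FAC, where CPM is a count scaled to a common library size with TMM factors. With either agent every KO value was under every WT value. Counts cover the whole gene and do not test which part is deleted. The FAC effect on Nr1h4 was -0.95 ± 0.14 in WT and -0.88 ± 0.16 in KO (log2 ± SE), and the difference, 0.06 ± 0.21 (adjusted p = 0.908), was not called. Library totals lay between 16464494 and 18335700 estimated reads. The first principal component (61.1% of the variance) separated the genotypes and the second (17.5%) the agents. The third (7.56%) spread the KO libraries, from KO FAC 4 at -18.3 to KO FAC 6 at 20.3. Summed hepatocyte markers such as Alb and Apoa1 were 22000 to 23300 CPM in WT AC, 30600 to 32400 in WT FAC, 22800 to 24500 in KO AC and 29900 to 30400 in KO FAC, so the FAC libraries were above the AC libraries in both genotypes. Most of the sum was Alb, which was lower in KO than in WT under AC, so similar sums do not show similar genotypes. Under AC, Apoa1, Ttr, Serpina1a, Cyp2e1, Cps1 and Tat were higher in every KO library than in every WT library. Cyp2e1, for one, was at 706 to 782 CPM in KO AC and 111 to 122 in WT AC, while Hnf4a overlapped. Summed macrophage markers lay at 353 to 430 CPM in WT AC, 655 to 706 in WT FAC, 557 to 689 in KO AC and 729 to 864 in KO FAC, nearly all of it Cd68, a lysosomal protein, while the macrophage-defining Adgre1 was at 1.97 to 2.38 CPM in WT AC and under 1 CPM in all other libraries. Summed cholangiocyte markers were 405 to 424, 357 to 402, 113 to 122 and 169 to 184 CPM in the same order. Summed endothelial markers were 40.3 to 51.6 CPM outside KO FAC and 32.3 to 40.1 in KO FAC, summed stellate markers were 4.63 to 19 CPM, and summed lymphocyte and neutrophil markers were at most 1.2 CPM. The part of other cell types in the results was not tested, and in bulk RNA fewer cells of a type and less RNA per cell cannot be told apart.

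Of the 387 called genes, 230 (1.87% of tested genes) had a KO effect above the WT effect and 157 (1.28%) a KO effect below it. At an unadjusted p under 0.05 the number was 2346. The median size of the called differences was 0.66 in log2 units, and 100 of them were at least 2-fold, 77 above and 23 below. Of the called genes 59.4% were above, against 47.9% with limma on log2(FPKM + 1), 46.4% on log2(FPKM + 0.1) and 43.9% on log2(TPM + 1). Over all tested genes the median difference was -0.01, with the 5th and 95th percentiles at -0.56 and 0.78. The SE of a difference had a median of 0.167, against 0.118 for the FAC effect in either genotype, so the difference was measured less precisely than either effect. The FAC effect itself was called for 17.2% of tested genes in WT and 29.6% in KO. In WT 1068 genes were called higher with FAC and 1049 lower, and in KO 1838 higher and 1795 lower. Counts of list genes that rose or fell, given below, are to be read beside these. In mean CPM in place of log2 units, 383 of the 387 genes had a difference of the same sign.

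**Figure D1:**
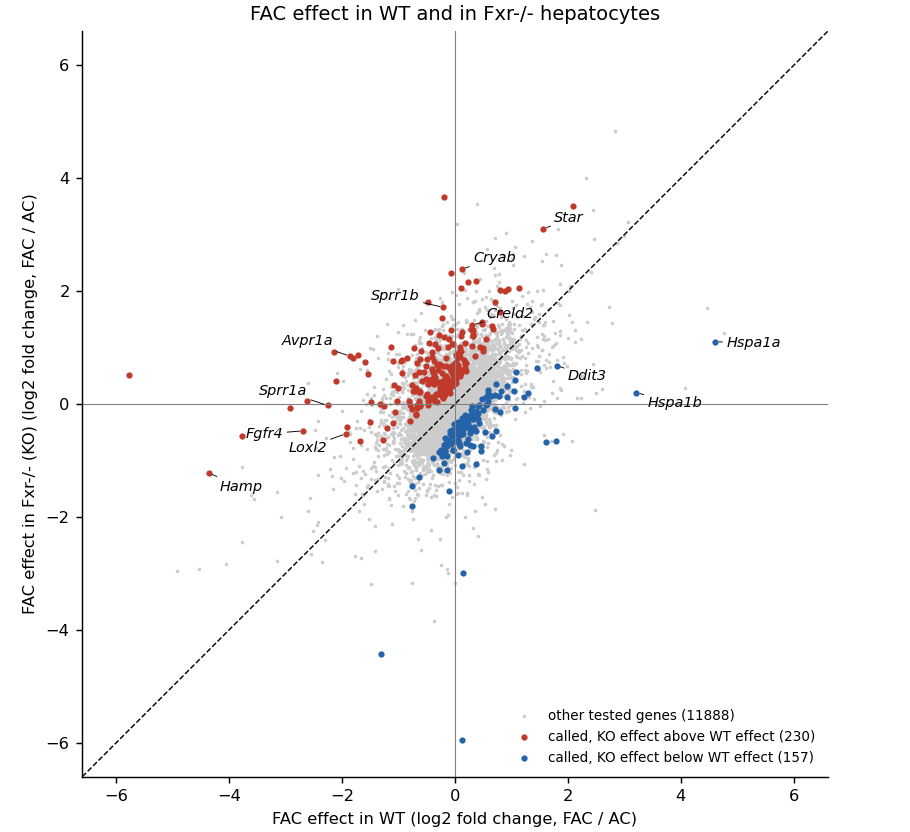
Each point is one of 12275 tested genes, with the FAC effect in WT on the x axis and in KO on the y axis (log2 fold change, FAC over AC). The dashed line marks equal effects; 230 called genes (red) lie above it and 157 (blue) below it, with Hspa1a and Hspa1b far to the right and Hamp far to the left.

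The 387 genes fell into classes by which of the FAC effects passed, which is a description since the same libraries chose the genes. The FAC effect passed in KO alone for 223 genes, 125 of them higher with FAC and 98 lower. It passed in WT alone for 86 genes, 32 higher and 54 lower. Over all tested genes the effect passed in KO alone for 2427 and in WT alone for 911, so KO alone was the larger class there too. Both effects passed in the same direction for 42 genes, larger in KO for 25 and larger in WT for 17, against 621 and 551 over all tested genes. For 34 genes both passed in opposite directions, with 24 higher in KO and lower in WT. The effects passed in neither genotype for 2 genes, the splicing factor Srsf3 and the co-chaperone Dnaja1. FAC and AC libraries did not overlap in WT for 246 of the 387 genes and in KO for 309, against 43.2% and 38.8% of all tested genes.

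**Figure D2:**
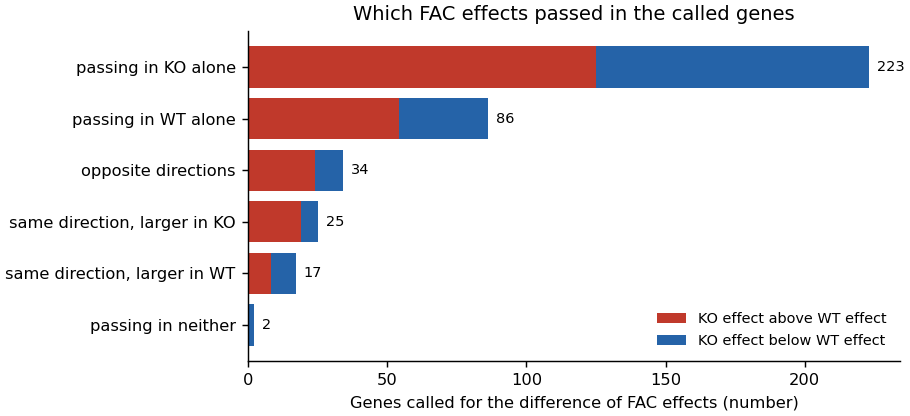
Bars give the number of called genes in each response class, split by the sign of the difference (red, KO effect above WT effect; blue, below). The class in which the FAC effect passed in KO alone is the most numerous, with 223 of 387 genes. Over all tested genes the effect passed in KO alone for 2427 and in WT alone for 911.

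Read the other way, the same difference says how the gap between KO and WT changed between AC and FAC. KO against WT was called for 42.9% of tested genes under AC and 49.5% under FAC. Among the 387 genes the gap passed under FAC alone for 145 and under AC alone for 73, against 2165 and 1359 of all tested genes. It passed under both and was wider under FAC for 94 genes, narrower for 24, and of opposite sign for 51. Over all tested genes these classes held 2415, 1437 and 54.

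The number of called genes moved with single libraries. Dropping WT AC 3 left 95, dropping WT AC 2 left 138, and dropping any of the WT FAC libraries left 138 (4), 145 (5) or 142 (6). In KO, dropping AC 2 left 188, AC 3 left 175 and FAC 5 left 167, whereas the number was 587 after dropping AC 1 and 643 after dropping FAC 4. In each of these fits all 387 genes kept the sign of their difference. That was nearly fixed in advance, since the genes were called from the same libraries, and it lends the calls no support. By the rule for named genes, 85 genes were followed, of which 70 were called; 33 of the 70 stayed called without each of the 12 libraries in turn, and 11 stayed called under every alternative. Below, "lost without" refers to leaving out each listed library alone, and WT AC 2/3 stands for libraries 2 and 3 of that group. Called list members outside the 85 genes were named after their values were seen.

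The hepcidin gene Hamp (chr7:30942368-30944029, GRCm38.p6) fell with FAC in both genotypes, and less in KO. Hamp lies beside Hamp2 (chr7:30922372-30924181), a near copy. Their promoters are shown because the copies behaved differently and because a BMP response element in the Hamp promoter is a known control point of hepcidin. The 250 bases before the annotated starts, on the minus strand at chr7:30944030-30944279 and chr7:30924182-30924431 (RefSeq, GRCm38.p6), read as follows, with capitals for the element GGCGCC in Hamp and the aligned bases in Hamp2.
Hamp: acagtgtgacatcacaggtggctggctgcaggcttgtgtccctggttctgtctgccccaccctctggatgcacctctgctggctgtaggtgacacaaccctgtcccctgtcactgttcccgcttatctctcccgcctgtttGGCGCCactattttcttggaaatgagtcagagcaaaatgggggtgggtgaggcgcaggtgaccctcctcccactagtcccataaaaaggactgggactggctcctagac
Hamp2: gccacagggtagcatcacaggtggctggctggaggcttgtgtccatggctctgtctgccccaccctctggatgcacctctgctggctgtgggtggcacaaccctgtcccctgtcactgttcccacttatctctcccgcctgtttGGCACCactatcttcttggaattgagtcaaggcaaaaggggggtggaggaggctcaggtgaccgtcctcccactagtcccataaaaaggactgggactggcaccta
The aligned promoters were the same at 227 of 250 bases (90.8%). The element begins 109 bases before the start of Hamp. At the aligned place Hamp2 has the substitution G4A, counted from 1 at the 5′ end of the element with the base of Hamp first. GGCGCC, which reads the same on both strands, was present in 11.9% of all 32851 RefSeq promoters of 300 bases. Counted by gene, a match in any promoter of the gene was found for 24.3% of tested genes with a promoter. By the same count it was found for 16.9% of those called above and 18.5% of those called below. Shares of promoters and of genes are unlike measures. Such a match is a description of the letters, not a site.

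Hamp was at 302, 348 and 319 CPM in WT AC, 17, 20.3 and 9.87 in WT FAC, 135, 275 and 253 in KO AC and 142, 80.9 and 61.9 in KO FAC. The WT libraries separated widely, whereas in KO the AC library 1 lay below FAC library 4, so that the KO groups overlapped. The FAC effect was -4.36 ± 0.42 in WT and -1.22 ± 0.37 in KO, and the difference was 3.14 ± 0.54 (adjusted p = 0.0215). The call on Hamp was lost without WT AC 2/3 and WT FAC 4 (adjusted p up to 0.0605). KO and WT did not differ detectably in Hamp under AC (-0.54, adjusted p = 0.25), and KO was above WT under FAC (2.59, adjusted p = 0.000626). Hamp2 went another way: its level was 0.109, 0.108 and 0.219 CPM in WT AC, 0.452, 0.657 and 0.172 in WT FAC, 13.7, 11.7 and 10.9 in KO AC and 38.7, 41.1 and 42.5 in KO FAC, near 0 in all WT libraries, and it rose in KO by 1.75 ± 0.14. Its difference of 0.23 ± 0.71 (adjusted p = 0.9) was not called. Reads of near copies can be split by the counting, and with the reads of Hamp and Hamp2 summed the difference was 3.54 ± 0.45 (adjusted p = 0.00702), with effects of -4.32 in WT and -0.78 in KO. The latter then missed the threshold (adjusted p = 0.0801).

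Several other targets of BMP-SMAD signalling also fell with FAC. Of 24 tested genes of this list, 8 fell and 0 rose in WT, and 10 fell and 2 rose in KO. A difference was called for 2 (8.33%), Hamp and Bambi, a decoy receptor of the BMP and TGF-beta family. Bambi had no called effect in WT (-0.45 ± 0.24) and rose in KO (1.27 ± 0.22). Its level was low, going from 1.38 to 1.01 CPM in WT and from 1.12 to 2.71 CPM in KO. The difference was 1.72 ± 0.32 (adjusted p = 0.0153), a call lost with the replicate number as a block. The list's median difference was 0.20, and 0.13 without WT AC 2. Id1, a transcriptional regulator induced by BMP, went from 45.4 to 11.5 CPM in WT and from 16.8 to 6.49 CPM in KO, with effects of -1.97 ± 0.16 and -1.37 ± 0.18 and a difference of 0.61 ± 0.24 (adjusted p = 0.182). Id1 was called without both KO AC 1 and KO FAC 4 (adjusted p = 0.00754), a fit that called 1918 genes. Id2 of the same family had effects of -3.14 ± 0.32 and -1.55 ± 0.31 and a difference of 1.59 ± 0.45 (adjusted p = 0.0858), which passed without KO FAC 4 (adjusted p = 0.027). Id2 also passed with DESeq2 (adjusted p = 0.0438) and without either pair of KO libraries. It passed with the replicate number as a block, a fit that called 84 genes, against 387 without the block. The iron-responsive regulator Atoh8 had a difference of 1.23 ± 0.57 (adjusted p = 0.263), the inhibitor Smad7 0.58 ± 0.24 (adjusted p = 0.196), the inhibitor Smad6 -0.11 ± 0.38 (adjusted p = 0.909) and Id3 0.12 ± 0.32 (adjusted p = 0.874). For these genes a missed threshold does not show equal effects. The ligand Bmp6 had no called FAC effect in either genotype (0.20 ± 0.10 and -0.03 ± 0.11).

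The inducible Hsp70 genes Hspa1a and Hspa1b, chaperones made when proteins misfold, rose strongly with FAC in WT. In KO Hspa1a rose less and Hspa1b had no called effect. They are neighbours (chr17:34969359-34972156 and chr17:34956429-34959238) with nearly the same sequence. Their promoters are shown because the genes moved together. Before the annotated starts, on the minus strand at chr17:34972157-34972406 and chr17:34959239-34959488 (RefSeq, GRCm38.p6), they differ at 3 of 250 bases, in capitals.
Hspa1a: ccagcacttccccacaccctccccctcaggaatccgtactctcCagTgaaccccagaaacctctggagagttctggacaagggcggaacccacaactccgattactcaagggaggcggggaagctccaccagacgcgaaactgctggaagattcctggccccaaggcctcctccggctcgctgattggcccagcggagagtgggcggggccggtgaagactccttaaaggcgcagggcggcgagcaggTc
Hspa1b: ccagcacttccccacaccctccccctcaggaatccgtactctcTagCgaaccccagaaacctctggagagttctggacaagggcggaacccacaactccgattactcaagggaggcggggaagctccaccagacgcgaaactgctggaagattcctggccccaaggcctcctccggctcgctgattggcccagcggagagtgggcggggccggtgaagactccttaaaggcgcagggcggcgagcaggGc
An exact pattern of the heat shock element, 3 alternating units searched on both strands, was not matched in either window. It was present in 0.603% of all promoters. The search did not allow for imperfect units, so a missing match does not show that these promoters lack such an element.

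Hspa1a was at 1.91, 1.73 and 2.02 CPM in WT AC, 43.2, 51.2 and 44.3 in WT FAC, 3.9, 3.98 and 2.68 in KO AC and 5.61, 9.74 and 7.45 in KO FAC. The WT FAC libraries were far above all others, and the KO FAC libraries lay above the KO AC libraries. The FAC effect was 4.61 ± 0.20 in WT and 1.10 ± 0.20 in KO, with a difference of -3.51 ± 0.28 (adjusted p = 3.05e-05). Hspa1b was at 6.82, 8.38 and 6.29 CPM in WT AC, 64.2, 75 and 60.1 in WT FAC, 18.2, 13 and 14.7 in KO AC and 15.3, 18.8 and 18.7 in KO FAC. Again the WT FAC libraries stood apart, while KO AC and KO FAC overlapped. Its effects were 3.21 ± 0.15 and 0.20 ± 0.14, with a difference of -3.01 ± 0.21 (adjusted p = 9.82e-06), and with the reads of both genes summed the difference was -3.22 ± 0.19 (adjusted p = 2.5e-06). Under AC the order was the reverse: KO was above WT for Hspa1a by 0.90 (adjusted p = 0.00719) and for Hspa1b by 1.09 (adjusted p = 8.83e-05).

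Over the 20 tested genes of the heat shock list, 4 (20%) were called, and the list's median difference was -0.09, from -0.13 without WT AC 1 to -0.05 without KO FAC 5. Beside the Hsp70 pair these were the co-chaperone Dnaja1, with a difference of -0.47 ± 0.12 (adjusted p = 0.0491), and Cryab, a small heat shock protein. Cryab went the other way, from 2.72 to 2.96 CPM in WT and from 4.37 to 22.9 CPM in KO, with a difference of 2.26 ± 0.36 (adjusted p = 0.00749) that stayed called without each library in turn. The call on Dnaja1 was lost without each library but WT AC 1 (adjusted p up to 0.143). In each genotype 4 of the 20 genes rose and 1 fell.

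The integrated stress response slows protein synthesis and switches on amino acid supply genes through Atf4. Of 30 tested genes of the list, 16 rose with FAC in WT and 15 in KO, none fell, and the others did not pass. The medians of the FAC effects were 0.39 and 0.36, and that of the difference was 0.05. It was -0.16 without KO AC 1 and KO FAC 4. Differences were called for 8 of the 30 (26.7%), 6 above and 2 below, and for 2 to 6 above and 1 to 7 below when single libraries or a pair of KO libraries were left out. Ddit3, which encodes the pro-apoptotic factor CHOP, was below: 17.8, 23.3 and 20.3 CPM in WT AC, 68.5, 72 and 74.1 in WT FAC, 21.4, 22.5 and 22.3 in KO AC and 35.1, 36.1 and 34.9 in KO FAC. The AC libraries of both genotypes overlapped, and every FAC library was above them, the WT ones highest. The effects were 1.80 ± 0.09 in WT and 0.68 ± 0.09 in KO, with a difference of -1.13 ± 0.13 (adjusted p = 0.000558). Stc2, a secreted glycoprotein of the same response, was also below (from 2.87 to 6.67 CPM in WT and from 17.9 to 19.5 CPM in KO, difference -1.09 ± 0.28, adjusted p = 0.0491), and its call was lost without each library but KO AC 1 (adjusted p up to 0.128).

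The 6 called above were Phgdh, Psat1 and Psph, the serine synthesis enzymes, together with Asns, which makes asparagine, the mitochondrial enzyme Pck2 and the translation inhibitor Eif4ebp1. Phgdh, the first enzyme of serine synthesis, was at 69.6, 69.7 and 75.3 CPM in WT AC, 103, 103 and 94 in WT FAC, 25.5, 25.1 and 28.3 in KO AC and 72.1, 68.7 and 70.5 in KO FAC. The KO AC libraries were lowest, and the KO FAC libraries came up to the level of WT AC. Its effects were 0.48 ± 0.07 and 1.42 ± 0.07, with a difference of 0.94 ± 0.10 (adjusted p = 0.000331). Psat1 went from 122 to 137 CPM in WT and from 60.1 to 126 CPM in KO, a called effect in KO alone, with a difference of 0.90 ± 0.12 (adjusted p = 0.0024). Differences were 0.55 ± 0.13 (adjusted p = 0.0366) for Psph, 0.50 ± 0.12 (adjusted p = 0.0372) for Asns, 0.75 ± 0.16 (adjusted p = 0.0292) for Pck2 and 0.41 ± 0.09 (adjusted p = 0.0314) for Eif4ebp1. The call on Psph was lost without each library but WT AC 1, WT FAC 4, KO AC 1/3 and KO FAC 4 (adjusted p up to 0.105). That on Asns was lost without each library but KO AC 1/3 and KO FAC 4/6 (adjusted p up to 0.0939), that on Pck2 lost without each library but WT AC 1, KO AC 1/3 and KO FAC 4/6 (adjusted p up to 0.088) and that on Eif4ebp1 lost without each library but WT AC 1, KO AC 1 and KO FAC 4/6 (adjusted p up to 0.0926). Trib3, a direct Atf4 target, and Atf4 itself had no called difference and rose in both genotypes, by 0.58 ± 0.08 and 0.61 ± 0.08 for Trib3 and 0.37 ± 0.09 and 0.28 ± 0.09 for Atf4.

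Chaperones of the endoplasmic reticulum fold secreted proteins. Of 27 tested genes of the list, 7 rose with FAC and none fell in WT, and 14 rose and 2 fell in KO. Differences were called for 5 (18.5%), 4 above and 1 below, and for 2 to 10 above and 0 to 3 below with libraries left out. Creld2, a secreted protein made when this compartment is stressed, was at 26.2, 28.7 and 25.2 CPM in WT AC, 34.9, 32.6 and 31.6 in WT FAC, 76.3, 65.5 and 63.2 in KO AC and 175, 181 and 183 in KO FAC. The KO FAC libraries exceeded all others by more than the whole spread within any group. The effects were 0.31 ± 0.08 and 1.40 ± 0.08, with a difference of 1.09 ± 0.11 (adjusted p = 0.000331). The chaperone Hsp90b1 had a difference of 0.50 ± 0.10 (adjusted p = 0.0199), Calr 0.43 ± 0.09 (adjusted p = 0.0247) and the disulfide isomerase P4hb 0.40 ± 0.07 (adjusted p = 0.0118), while Hyou1 was below at -0.43 ± 0.10 (adjusted p = 0.0359). The master chaperone Hspa5 rose in both, by 0.35 ± 0.06 and 0.37 ± 0.06, with no called difference. The call on Hsp90b1 was lost without WT AC 3, WT FAC 4/5 and KO AC 2/3 (adjusted p up to 0.0609), that on Hyou1 lost without each library but WT AC 1, KO AC 1 and KO FAC 4 (adjusted p up to 0.108) and that on Calr lost without each library but WT AC 1, KO AC 1/2 and KO FAC 4/6 (adjusted p up to 0.068).

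**Figure D3:**
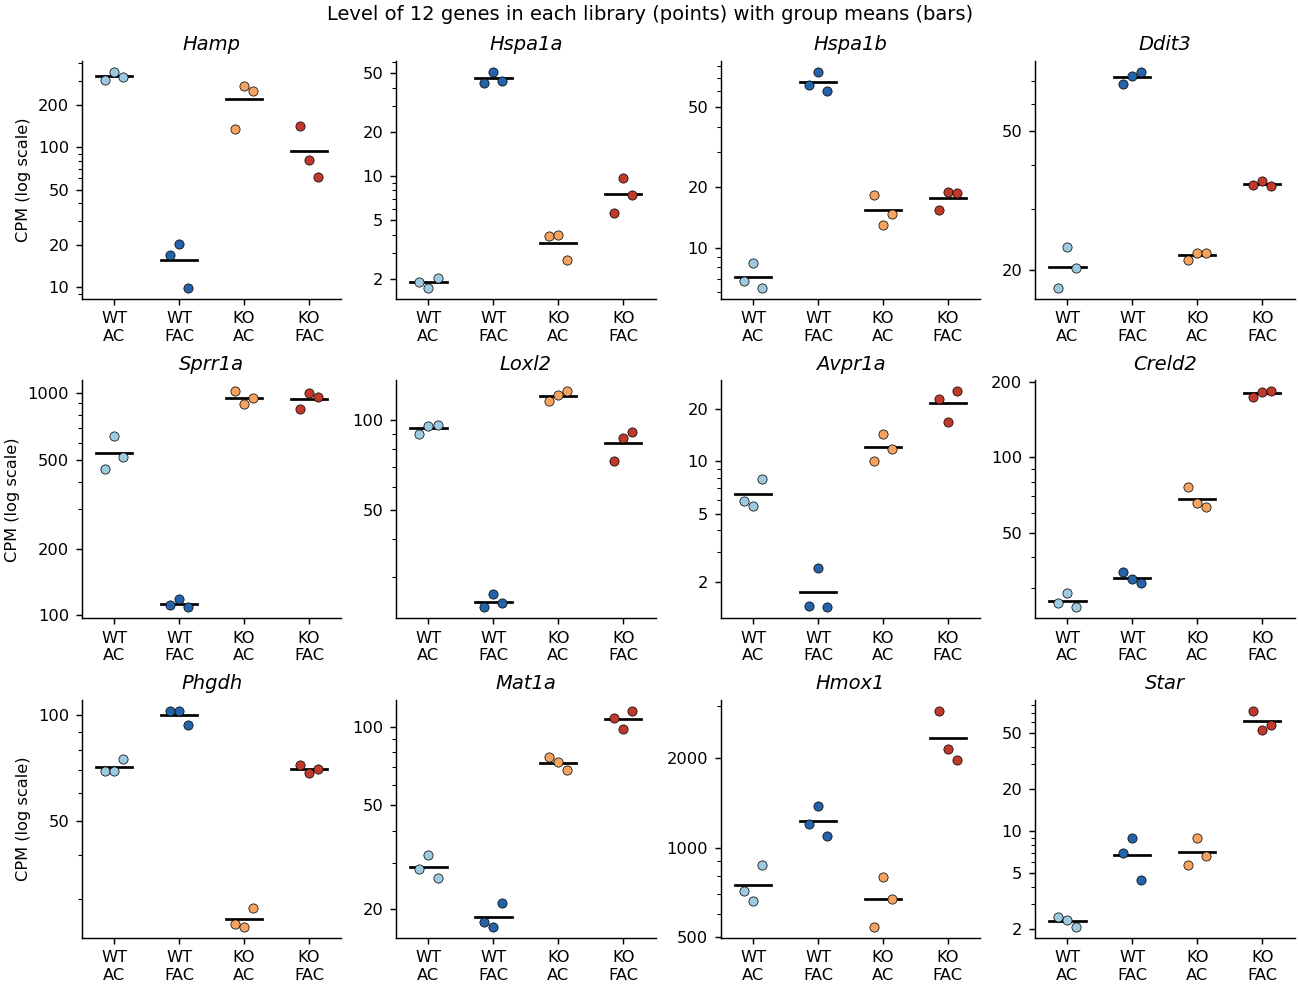
Each panel shows 1 gene, with the 3 libraries of each group as points and the group mean as a bar, on a log axis in CPM. Hspa1a, Hspa1b and Ddit3 are highest in WT FAC; Creld2, Star, Mat1a and Avpr1a are highest in KO FAC; Hamp, Sprr1a, Loxl2 and Avpr1a are lowest in WT FAC.

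Genes that moved in opposite directions included enzymes, receptors and cytoskeletal proteins. Avpr1a, the vasopressin receptor of hepatocytes, was at 5.94, 5.52 and 7.88 CPM in WT AC, 1.47, 2.41 and 1.43 in WT FAC, 10.1, 14.4 and 11.8 in KO AC and 22.8, 17 and 25.4 in KO FAC. It fell in WT (-1.86 ± 0.25) and rose in KO (0.84 ± 0.19), and neither pair of groups overlapped. Its difference was 2.70 ± 0.32 (adjusted p = 0.000818). Mat1a, the liver enzyme that makes S-adenosylmethionine, was at 28.5, 32.4 and 26.4 CPM in WT AC, 17.8, 17.1 and 21.1 in WT FAC, 76.9, 73.3 and 68.3 in KO AC and 108, 98.5 and 115 in KO FAC, again with no overlap of FAC and AC in either genotype. Its effects were -0.64 ± 0.10 and 0.56 ± 0.09, with a difference of 1.20 ± 0.14 (adjusted p = 0.000791). Both calls held without each library in turn.

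The intermediate filament protein Vim went from 738 to 531 CPM in WT and from 799 to 1015 CPM in KO (difference 0.82 ± 0.13, adjusted p = 0.00742). The membrane repair protein Myof went from 77.4 to 58.5 CPM in WT and from 23.4 to 36.1 CPM in KO (difference 1.03 ± 0.12, adjusted p = 0.000558). Fblim1, which links the actin cytoskeleton to adhesion sites, went from 60.1 to 41.1 CPM in WT and from 45 to 66.7 CPM in KO (difference 1.11 ± 0.13, adjusted p = 0.000818). Lmcd1, a LIM domain regulator of transcription, went from 32.9 to 20.6 CPM in WT and from 56.6 to 93.7 CPM in KO (difference 1.40 ± 0.23, adjusted p = 0.00985). These 4 fell in WT and rose in KO, as did the pentose phosphate enzyme Tkt by a smaller margin (difference 0.35 ± 0.07, adjusted p = 0.0278). The single-strand DNA binding protein Nabp1 rose in WT and fell in KO, from 129 to 161 CPM in WT and from 135 to 80.8 CPM in KO (difference -1.06 ± 0.09, adjusted p = 3.05e-05). The DNA methyltransferase Dnmt3a did the same, from 76.8 to 128 CPM in WT and from 168 to 121 CPM in KO (difference -1.21 ± 0.19, adjusted p = 0.0083), as did the interferon-induced Ifi35 (-0.59 ± 0.12, adjusted p = 0.0251). For Dnmt3a the KO groups overlapped, with KO AC 1 at 133 CPM and KO FAC 4 at 138 CPM. Its call was lost with the replicate number as a block. The call on Tkt was lost without each library but WT AC 1, KO AC 1/3 and KO FAC 4 (adjusted p up to 0.0905), and that on Ifi35 lost without WT AC 2/3 and WT FAC 4 (adjusted p up to 0.0703).

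Over the 31 tested genes of the cytoskeleton and dedifferentiation list, which gathers genes that change when hepatocytes are cultured, 3 (9.68%) were called, all above: Vim, the keratin Krt18 and the galectin Lgals3. The call on Krt18 was lost without each library but WT AC 1, KO AC 1 and KO FAC 4 (adjusted p up to 0.12) and that on Lgals3 lost without each library but WT AC 1, WT FAC 6, KO AC 1 and KO FAC 4/6 (adjusted p up to 0.0773). The list's median difference was 0.20, and 0.12 without KO FAC 4. With libraries left out 1 to 7 genes were called above. In WT 2 of the genes rose and 11 fell, and in KO 11 rose and 10 fell.

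The FAC effect passed in WT alone for Sprr1a, a cross-linked protein of epithelial envelopes. It was at 457, 644 and 517 CPM in WT AC, 112, 118 and 109 in WT FAC, 1020, 893 and 956 in KO AC and 853, 1004 and 960.2 in KO FAC. All WT FAC libraries were far below every other library, and the KO groups overlapped. The effects were -2.26 ± 0.11 and -0.03 ± 0.11, with a difference of 2.23 ± 0.15 (adjusted p = 9.82e-06). Its neighbour Sprr1b went from 6.8 to 5.91 CPM in WT and from 7.81 to 25.6 CPM in KO, a called effect in KO alone (difference 1.91 ± 0.24, adjusted p = 0.00113).

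Loxl2, a hypoxia-inducible enzyme that cross-links collagen, was at 90.2, 95.9 and 96.7 CPM in WT AC, 23.7, 26.2 and 24.4 in WT FAC, 116, 121 and 125 in KO AC and 73.2, 87.7 and 91.3 in KO FAC. It fell in both genotypes with no overlap, with effects of -1.93 ± 0.09 and -0.52 ± 0.08, and the difference was 1.40 ± 0.12 (adjusted p = 3.05e-05). Fgfr4, the receptor through which the gut hormone Fgf15 restrains bile acid synthesis, was at 5.94, 9.2 and 7.0 CPM in WT AC, 0.903, 0.821 and 1.72 in WT FAC, 13.5, 15.6 and 18 in KO AC and 10.2, 11.4 and 12.2 in KO FAC. It was lowest in WT FAC, with no overlap of that group with any other, and fell in WT (-2.68 ± 0.25) while the effect in KO was -0.47 ± 0.18. Its difference was 2.21 ± 0.32 (adjusted p = 0.00408). Of the class passing in WT alone were also the mitotic gene Gtse1 (from 16.7 to 8.01 CPM in WT and from 16.8 to 15.2 CPM in KO), the LIM protein Crip2 (from 63.5 to 40.8 CPM in WT and from 64.3 to 74.6 CPM in KO) and Spin4, a reader of histone marks (from 13.5 to 28.1 CPM in WT and from 15.3 to 14.6 CPM in KO), with differences of 0.91, 0.85 and -1.13. The amino acid transporter Slc38a4 fell in both genotypes and more in WT, from 328 to 202 CPM in WT and from 327 to 285 CPM in KO (difference 0.50 ± 0.08, adjusted p = 0.00658).

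The genes that hepatocytes use to take up, store and export iron had few called differences. Of 23 tested genes 1 (4.35%), Steap3, a ferrireductase of endosomes, had a called difference (0.55 ± 0.10, adjusted p = 0.0158), near the share over all genes, and it was lost without WT AC 3 (adjusted p up to 0.0539). Tfrc, the transferrin receptor, fell from 83.7 to 38.4 CPM in WT and from 60.6 to 17.5 CPM in KO, with a difference of -0.67 ± 0.23 (adjusted p = 0.132). The ferritin subunits rose in both genotypes, Ftl1 by 0.79 ± 0.08 and 1.03 ± 0.08 and Fth1 by 0.33 ± 0.09 and 0.56 ± 0.09, with differences of 0.24 ± 0.11 (adjusted p = 0.26) and 0.23 ± 0.13 (adjusted p = 0.379). The exporter ferroportin, Slc40a1, rose by 0.79 ± 0.18 and 1.05 ± 0.19 (difference 0.26 ± 0.26, adjusted p = 0.626). For none of the 4 was the difference called, which does not show equal effects. Without KO AC 1 and KO FAC 4 the difference was 0.64 for Slc40a1 (adjusted p = 0.0115) and 0.38 for Ftl1 (adjusted p = 0.0235), both then called. That fit called 1918 genes, against 387 with all libraries, and neither gene was called without KO AC 1 and KO FAC 6. With single libraries left out, the difference of Slc40a1 lay between 0.03 without KO FAC 6 and 0.46 without KO FAC 4. Among 17 tested genes of haem metabolism 1 (5.88%) was called, Hmox1.

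Hmox1, haem oxygenase, breaks haem down and releases its iron. It was at 713, 659 and 875 CPM in WT AC, 1198, 1385 and 1093 in WT FAC, 542, 797 and 672 in KO AC and 2888, 2151 and 1967 in KO FAC. FAC libraries were above AC libraries in both genotypes, and the KO FAC libraries were the highest. The effects were 0.71 ± 0.17 and 1.80 ± 0.18, with a difference of 1.09 ± 0.25 (adjusted p = 0.0418). The call on Hmox1 was lost without each library but KO AC 2 and KO FAC 4/6 (adjusted p up to 0.103). Nrf2 targets and glutathione genes had 2 called members of 34 (5.88%), Tkt above and Gclc, the catalytic subunit of the enzyme that limits glutathione synthesis, below. Gclc fell from 1421 to 909.8 CPM in WT and from 702 to 285 CPM in KO (difference -0.66 ± 0.14, adjusted p = 0.0323), and its call was lost without each library but WT AC 1, KO AC 1 and KO FAC 4/6 (adjusted p up to 0.0874). In mean CPM the fall of Gclc was larger in WT, so that on this scale its difference had the opposite sign (94.3). Of 19 tested superoxide and peroxide enzymes 1 was called, Prdx6, at 0.53 ± 0.08 (adjusted p = 0.00742). None of 17 ferroptosis defence genes was called by edgeR, with 4 at an unadjusted p under 0.05 and none called by DESeq2 or limma, and none of 21 genes of iron-sulfur cluster assembly, with 1 at an unadjusted p under 0.05 and none by the other tools.

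Of 23 tested genes known to be induced by Fxr, 3 (13%) had a called difference, all above, and the list's median difference was 0.23. The median was 0.08 without WT AC 2 and 0.36 without KO AC 1 and KO FAC 4, and the number called above ran from 1 to 8 with libraries left out. In WT 6 rose and 2 fell, and in KO 14 rose and 2 fell. Fga, a fibrinogen chain, went from 139.9 to 176 CPM in WT and from 699.6 to 1731 CPM in KO (difference 0.98 ± 0.17, adjusted p = 0.0114), and Fgb from 625 to 668 CPM in WT and from 1214 to 2439.5 CPM in KO (difference 0.91 ± 0.19, adjusted p = 0.027). The third chain, Fgg, rose in both genotypes, by 1.04 ± 0.13 and 1.13 ± 0.13, with no called difference. Abcb11, the canalicular bile salt export pump, was at 6.92, 5.84 and 5.53 CPM in WT AC, 5.48, 7.12 and 5.05 in WT FAC, 2.52, 2.16 and 1.86 in KO AC and 4.15, 5.36 and 4.19 in KO FAC. Its KO AC libraries were lowest and KO FAC libraries lay above them without overlap, while WT FAC and WT AC overlapped. The difference was 1.11 ± 0.26 (adjusted p = 0.0392), and its call was lost without each library but WT FAC 5, KO AC 1 and KO FAC 4/6 (adjusted p up to 0.0995). The call on Fgb was lost without each library but WT AC 1, WT FAC 6, KO AC 1 and KO FAC 4/6 (adjusted p up to 0.0747). The repressor Nr0b2, a well known Fxr target, lay at or under 1.30 CPM in every library, and its difference of 1.11 ± 1.05 (adjusted p = 0.606) had too large an error to show a change. At this low level it was called without both KO AC 1 and KO FAC 4 (adjusted p = 0.0227), a fit that called 1918 genes. It was not called without KO AC 1 and KO FAC 6.

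Carriers of bile acids and organic ions had 3 called members of 17 (17.6%), all above, and a median difference of 0.31. It was 0.46 without KO AC 1 and KO FAC 4, and with libraries left out 1 to 7 were called above. Slc10a1, the sodium-coupled bile acid importer, went from 2.56 to 2.34 CPM in WT and from 10.2 to 20.6 CPM in KO (difference 1.14 ± 0.20, adjusted p = 0.0105). Its call held without each library in turn and was lost with the replicate number as a block. Abcb11 was also among the called members. In KO 9 of the 17 rose and 2 fell, and in WT 2 rose and 2 fell. Over all tested genes more FAC effects were called in KO as well (29.6% against 17.2% in WT). Bile acid synthesis genes had 0 called of 21 by edgeR, with 6 at an unadjusted p under 0.05, 2 called by DESeq2 and 3 by limma on log2(FPKM + 1). Cyp8b1, which sets the ratio of bile acids, had a difference of 0.11 ± 0.87 (adjusted p = 0.964). It was called above 0 without both KO AC 1 and KO FAC 4 (adjusted p = 0.0362), a fit that called 1918 genes. Without KO AC 1 and KO FAC 6 it was not called.

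Among 14 tested genes of steroid synthesis and lipid carriers with a START domain, 3 (21.4%) were called, all above. Star, which moves cholesterol into mitochondria, was at 2.45, 2.33 and 2.08 CPM in WT AC, 6.94, 8.87 and 4.47 in WT FAC, 5.74, 8.97 and 6.69 in KO AC and 72.6, 53.2 and 57.6 in KO FAC. The KO FAC libraries were far above the other 9. The effects were 1.56 ± 0.26 and 3.10 ± 0.21, with a difference of 1.53 ± 0.34 (adjusted p = 0.0358). The call on Star was lost without each library but WT FAC 5/6, KO AC 2 and KO FAC 4/6 (adjusted p up to 0.0941). The phosphatidylcholine carrier Pctp went from 17.8 to 14.9 CPM in WT and from 17.9 to 28.8 CPM in KO and the mitochondrial reductase Fdxr from 7.04 to 5.76 CPM in WT and from 4.69 to 7.68 CPM in KO, with differences of 0.94 and 1.0. The call on Pctp was lost without each library but WT AC 1, WT FAC 6, KO AC 1 and KO FAC 4/6 (adjusted p up to 0.0794) and that on Fdxr lost without WT FAC 4/6, KO AC 3 and KO FAC 5 (adjusted p up to 0.0531).

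Amino acid breakdown and the urea cycle are functions of mature hepatocytes. Of 36 tested genes of this list, 30 had a difference above 0, against 49.1% of all tested genes, and 4 (11.1%) were called, all above. The median difference was 0.42 and stayed between 0.34 and 0.53 when single libraries or a pair of KO libraries were left out, while 2 to 12 genes were then called. Among other lists of liver metabolism, 25 of 29 drug cytochromes P450 (median 0.35) and 15 of 17 haem genes (0.14) were above 0. So were 12 of 17 carriers of bile acids and organic ions (0.31) and 20 of 30 genes of glucose metabolism (0.06). Nearer to all genes were fatty acid oxidation with 17 of 32 (0.01), bile acid synthesis with 13 of 21 (0.04) and fatty acid synthesis with 17 of 29 (0.05). FAC raised 9 and lowered 8 of the amino acid genes in WT, and raised 21 and lowered 4 in KO. Hgd, an enzyme that breaks down homogentisate, went from 4.61 to 2.16 CPM in WT and from 10.8 to 13.6 CPM in KO (difference 1.43 ± 0.29, adjusted p = 0.0228) and the urea cycle enzyme Cps1 from 4.99 to 3.49 CPM in WT and from 15.7 to 24.9 CPM in KO (difference 1.18 ± 0.21, adjusted p = 0.0106). Mat1a was also among the called members. The call on Hgd was lost without each library but WT AC 1, WT FAC 5, KO AC 1 and KO FAC 4/5/6 (adjusted p up to 0.0657).

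Cytochromes P450 of drug metabolism had 25 of 29 differences above 0 and a median of 0.35. Of the 29, 4 (13.8%) were called, all above. They were Cyp2a5, Cyp1a2, Cyp2d22 and Cyp4a10. With libraries left out 1 to 9 were called. In WT 13 rose and in KO 23 rose, and none fell in either. Cyp4a10, which hydroxylates fatty acids, went from 12.3 to 12.5 CPM in WT and from 26.7 to 48.5 CPM in KO (difference 0.84 ± 0.12, adjusted p = 0.00486), and Cyp1a2 from 37.2 to 35.7 CPM in WT and from 116 to 157 CPM in KO (0.49 ± 0.10, adjusted p = 0.0275). Cyp2d22 went from 11.4 to 11 CPM in WT and from 32.2 to 51 CPM in KO (0.72 ± 0.16, adjusted p = 0.0347). The call on Cyp1a2 was lost without each library but WT AC 1, KO AC 1/3 and KO FAC 4/6 (adjusted p up to 0.0751), that on Cyp2d22 lost without each library but KO AC 1 and KO FAC 4 (adjusted p up to 0.0957) and that on Cyp2a5 lost without each library but WT AC 1, WT FAC 6, KO AC 1 and KO FAC 4 (adjusted p up to 0.11). These genes belong to families of close copies among which reads can be split. Further genes whose FAC effect passed in KO alone or was larger there were Phyh, a peroxisomal enzyme of branched fatty acids (from 78.5 to 70.7 CPM in WT and from 164 to 230 CPM in KO), the protease inhibitor Serpind1 (from 20.5 to 25.5 CPM in WT and from 14.6 to 33.5 CPM in KO), the adipokine Serpina12 (from 85.4 to 148 CPM in WT and from 31.5 to 97.2 CPM in KO) and the reductase Ptgr1 (from 161 to 236 CPM in WT and from 97 to 215 CPM in KO), with differences of 0.64, 0.88, 0.83 and 0.59. The call on Serpina12 was lost without WT AC 3 (adjusted p up to 0.0528).

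Interferon-stimulated genes lay on the other side. Of 37 tested, 32 had a difference below 0 and 5 above, and the list's median was -0.38, between -0.51 and -0.25 when single libraries or a pair of KO libraries were left out. Called were 4 (10.8%), all below: Igtp, Ifi35, Ifi27 and Psmb8. In KO 20 fell and 1 rose, and in WT 5 fell and 2 rose. Igtp, an immunity-related GTPase, went from 39.7 to 35.3 CPM in WT and from 94.1 to 52.7 CPM in KO (difference -0.67 ± 0.16, adjusted p = 0.0429), and the mitochondrial protein Ifi27 from 86 to 112 CPM in WT and from 64.4 to 56.3 CPM in KO (-0.58 ± 0.15, adjusted p = 0.0486). The call on Igtp was lost without each library but WT AC 1 and KO AC 1 (adjusted p up to 0.121), that on Ifi27 lost without each library but KO AC 3 and KO FAC 6 (adjusted p up to 0.117) and that on Psmb8 lost without each library but WT FAC 6 and KO AC 1 (adjusted p up to 0.113). Gbp6, a guanylate-binding protein with close copies, went from 23.1 to 21 CPM in WT and from 28.8 to 12.8 CPM in KO (difference -1.03 ± 0.19, adjusted p = 0.0128). It kept its call without each library in turn and lost it with the replicate number as a block. Macrophage markers had no called member among the 5 of 11 that passed the filter, with 1 at an unadjusted p under 0.05, and 1 called by DESeq2 and 3 by limma. Their summed level, given above, was higher with FAC in both genotypes through Cd68, while in WT 1 of the 5 rose and 2 fell. Marco, a macrophage scavenger receptor, was at 2.35, 2.43 and 1.86 CPM in WT AC and 0.508, 0.657 and 0.860 in WT FAC. Endothelial markers had none of 9 called by edgeR, with 2 at an unadjusted p under 0.05, 1 called by DESeq2 and 2 by limma. In that list 8 of 9 differences were below 0, with a median of -0.84.

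Cytokines, chemokines and genes of NF-kB feedback had a median of -0.43, with 30 of 37 differences below 0. None was called by edgeR, 3 were at an unadjusted p under 0.05, 1 was called by DESeq2 and none by limma. That median was -0.84 without KO FAC 4 and -0.09 without KO FAC 6, so it moved with these libraries. Other genes below 0 were the hypoxia factor Epas1, which went from 73.3 to 56 CPM in WT and from 76.5 to 39.4 CPM in KO (difference -0.57 ± 0.11, adjusted p = 0.017), Vwa5a, a protein with a von Willebrand factor A domain (from 137 to 124 CPM in WT and from 199 to 105 CPM in KO, difference -0.79 ± 0.09, adjusted p = 0.000558), and the pantetheinase Vnn1 (from 47.3 to 28 CPM in WT and from 76.3 to 27.9 CPM in KO, difference -0.70 ± 0.15, adjusted p = 0.0293). The call on Epas1 was lost without WT AC 3 and WT FAC 4/6 (adjusted p up to 0.0613) and that on Vnn1 lost without each library but WT AC 1, KO AC 1/2 and KO FAC 4/5/6 (adjusted p up to 0.0813).

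**Figure D4:**
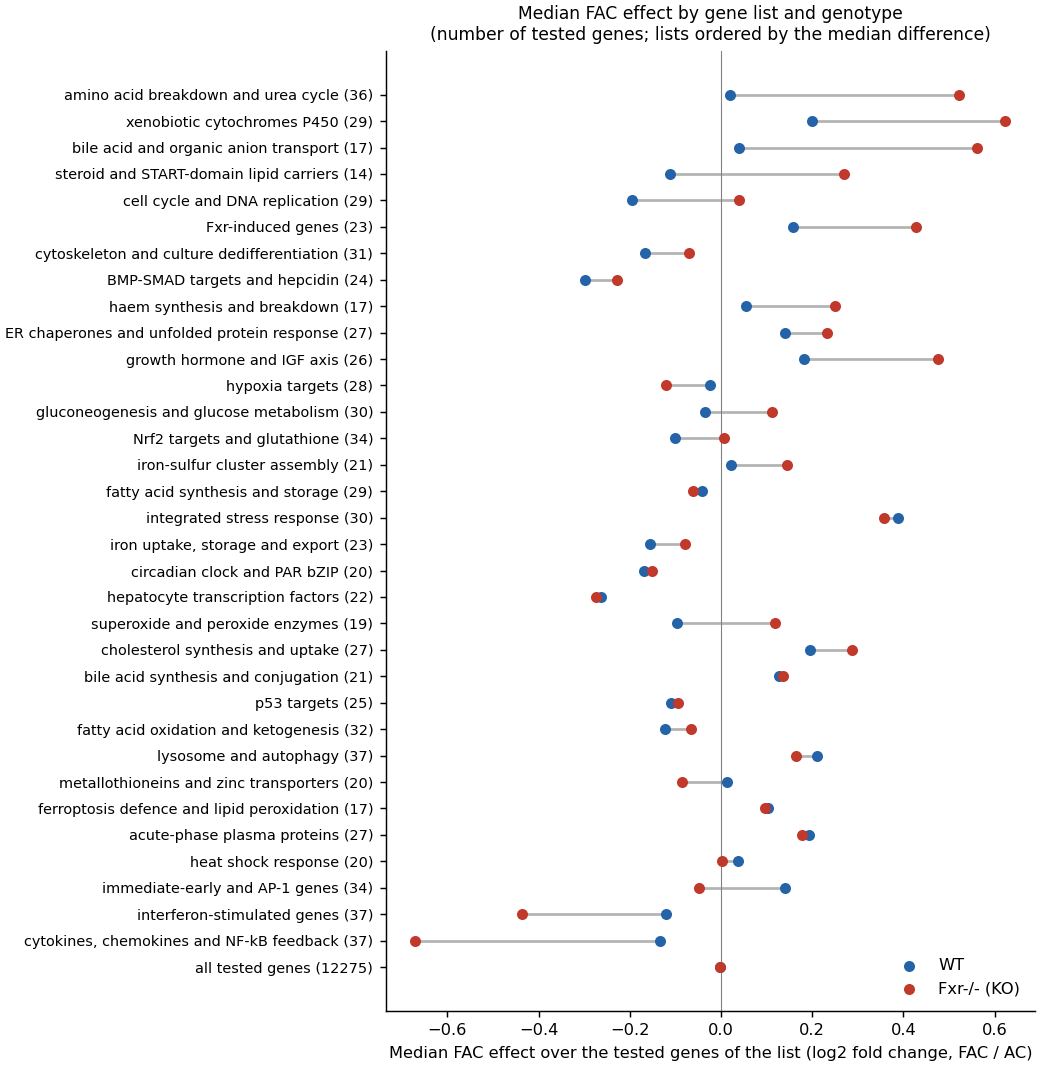
Points give the median FAC effect (log2 fold change, FAC over AC) over the tested genes of each list in WT (blue) and KO (red), for 33 lists of at least 10 tested genes (the groups added after the values were seen are not drawn) and for all tested genes at the bottom. Lists are ordered by the median difference, from 0.42 for amino acid breakdown at the top to -0.43 for cytokines; list members overlap in part and no test was run on the lists.

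Many lists had a share of called genes near that of all genes. Of 37 lysosome and autophagy genes, 19 rose and 1 fell in WT and 16 rose and 1 fell in KO, with 1 called difference, the melanosome glycoprotein Gpnmb (-0.55 ± 0.09, adjusted p = 0.00944). Cholesterol synthesis and uptake had 1 of 27 called, Insig2, an inhibitor of sterol synthesis (-0.33 ± 0.08, adjusted p = 0.0479), lost without each library (adjusted p up to 0.138). Fatty acid synthesis had 1 of 29, the desaturase Scd1, which went from 1392 to 819 CPM in WT and from 4261 to 4014 CPM in KO (0.68 ± 0.11, adjusted p = 0.00944). Gluconeogenesis and glucose metabolism had 2 of 30, Gapdh and Eno1, with differences of 0.35 and 0.36. The call on Gapdh was lost without each library but WT AC 1, KO AC 1 and KO FAC 4/6 (adjusted p up to 0.104) and that on Eno1 lost without each library but WT AC 1, KO AC 1 and KO FAC 4 (adjusted p up to 0.114). Hepatocyte transcription factors had 0 of 22 called by edgeR, with 2 at an unadjusted p under 0.05 and none by DESeq2 or limma, and 8 of them fell in each genotype. The clock genes had 0 of 20 called, with 3 at an unadjusted p under 0.05 and none by the other tools, and metallothioneins and zinc transporters 0 of 20, with 7 at an unadjusted p under 0.05 and 3 called by each of DESeq2 and limma. Cell cycle genes had a median difference of 0.29, with 22 of 29 above 0 and 1 called, the mitotic kinase Aurka (1.15 ± 0.29, adjusted p = 0.0451), lost without each library but KO AC 1 and KO FAC 4 (adjusted p up to 0.125). Immediate-early genes had a median of -0.19, with 24 of 34 below 0 and 1 called, Klf4 (0.87 ± 0.22, adjusted p = 0.0451), lost without each library but KO AC 1/2 and KO FAC 4 (adjusted p up to 0.127). That median was -0.07 without KO AC 2 and -0.49 without KO AC 1 and KO FAC 4, and with libraries left out 0 to 12 genes were called below.

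Among further named genes the FAC effect passed in KO alone for the zinc finger gene Zfp428 (from 3.92 to 3.73 CPM in WT and from 2.39 to 5.92 CPM in KO, difference 1.38 ± 0.27, adjusted p = 0.017), the retinol dehydrogenase Dhrs9 (from 4.92 to 7.73 CPM in WT and from 18.5 to 12.5 CPM in KO, difference -1.22 ± 0.29, adjusted p = 0.0399), the uric acid oxidase Uox (from 109.5 to 152 CPM in WT and from 239 to 142 CPM in KO, difference -1.22 ± 0.26, adjusted p = 0.0323) and Rsl1, a zinc finger regulator of sex-limited liver genes (from 11.5 to 11.9 CPM in WT and from 10.7 to 5.74 CPM in KO, difference -0.96 ± 0.18, adjusted p = 0.0148). The same class held the antiviral Trim30a (-1.07 ± 0.24, adjusted p = 0.0336), the IGF carrier Igfbp4 (0.77 ± 0.18, adjusted p = 0.0372) and complement factor Cfb (-0.43 ± 0.09, adjusted p = 0.0291). The call on Rsl1 held without each library in turn and was lost with the replicate number as a block. That on Zfp428 was lost without WT AC 3 and WT FAC 6 (adjusted p up to 0.0563), that on Dhrs9 lost without each library but WT FAC 6, KO AC 1 and KO FAC 4 (adjusted p up to 0.107) and that on Uox lost without each library but WT FAC 4, KO AC 1/2 and KO FAC 4/6 (adjusted p up to 0.0914). Those on Trim30a, Igfbp4 and Cfb were lost without each library but WT AC 1, KO AC 1 and KO FAC 4/6 (adjusted p up to 0.0847), lost without each library but WT AC 1, KO AC 1 and KO FAC 4 (adjusted p up to 0.0966) and lost without each library but WT AC 1, KO AC 1 and KO FAC 4 (adjusted p up to 0.0748). Acot2, a mitochondrial thioesterase, rose in WT alone (from 10.7 to 18.4 CPM in WT and from 9.97 to 10.9 CPM in KO, difference -0.65 ± 0.15, adjusted p = 0.0384), and its call was lost without each library but WT AC 1 and KO FAC 6 (adjusted p up to 0.111). Of 25 tested p53 targets, 2 (8%) were called, Gtse1 above and the pro-apoptotic Pmaip1 below. Pmaip1 was at 3.0, 3.62 and 3.12 CPM in WT AC, 1.19, 0.931 and 1.83 in WT FAC, 2.06, 2.82 and 3.55 in KO AC and 0.122, 0.262 and 0 in KO FAC. The last group was close to 0, so that no fold is given beside its adjusted p of 0.0252, a call lost without WT AC 3, WT FAC 4/6 and KO AC 3 (adjusted p up to 0.0667).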

How the data were processed

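RNA was measured by bulk sequencing in 12 libraries. The authors deposited estimated counts per gene, made with RSEM on mm10 (GRCm38.p6) per the submitters' processing notes. Not given in the sources used here are the version of RSEM, the aligner, the annotation and the strand setting. The deposited FPKM and TPM values are scaled by the authors to gene length and depth, and they served for a level filter and alternatives. The deposited file has 8 further numeric columns, not used. Of 28 symbols altered by a spreadsheet, 22 were restored through RefSeq identifiers.

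Counts were rounded (92.1% were whole) and genes with low counts removed (filterByExpr, minimum count 10), leaving 12275 and removing 4453. edgeR 4.0.16 in R 4.3.3 fitted the 4 groups with TMM scaling and a robust quasi-likelihood test, with Benjamini-Hochberg adjustment over all tested genes and a threshold of 0.05. The SE is the size of the log2 change divided by the square root of F. No library pair agreed within sampling noise (chi-square per degree of freedom 3.29 to 35.4). The fit was checked on simulated counts with known changes set in KO FAC. It recovered 35.8% of 1.5-fold, 64.2% of 2-fold and 89.4% of 4-fold changes, and 5.97% of its calls were false. Alternatives used DESeq2 1.42.0, limma 3.58.1, other scalings and filters, a replicate block, and libraries left out. Figures were drawn with matplotlib 3.10.9 in Python 3.11.15.

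Named genes were a fixed panel of 22, the 12 called genes with the most positive and the 12 with the most negative difference (mean FPKM at least 5 in a group), up to 3 called genes per list with at least 2 called, and up to 4 called genes with the smallest p per response class. The 40 gene lists (921 genes) and the members were chosen with earlier results of these data known. Near-identical copies (Hspa1a and Hspa1b, Hamp and Hamp2, the Gbp and Cyp families) can share reads. A few called genes are not reported here by name.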

Additional observations from a re-analysis of the deposited data

Results flagged for a closer look

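The comparison itself is the item to look at again: 387 genes had FAC effects that differed between WT and KO by the test of the difference. Among the named genes, 10 had called effects in opposite directions. Differences below 0, with a rise in WT and a fall in KO, were -1.21 for Dnmt3a, -1.06 for Nabp1 and -0.59 for Ifi35. Differences above 0, with a fall in WT and a rise in KO, were 0.35 for Tkt, 0.82 for Vim, 1.03 for Myof, 1.11 for Fblim1, 1.20 for Mat1a, 1.40 for Lmcd1 and 2.70 for Avpr1a (log2). The other called genes also differed between the genotypes and stand in the report. With 3 libraries in each group, single libraries were not screened as outliers.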

How the results depend on the processing

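All 387 genes kept the sign of their difference in every alternative that gave them a value, which their choice from the same libraries made nearly certain. Against 387 called genes (230 above, 157 below), DESeq2 called 678 (365 and 313), including 385 of the 387, and limma on log2(FPKM + 1) called 584 (280 and 304). The number below was 262 of 489 with limma on log2(FPKM + 0.1), 277 of 494 on log2(TPM + 1), and 100 of 267 without a dispersion trend or robust fitting. A test against a 1.5-fold threshold called 19 (14 and 5). When each library was left out in turn the count ran from 95 to 643, with 68 to 363 above and 27 to 280 below, and without both KO AC 1 and KO FAC 4 it was 1918 (990 and 928). The cause was not tested. With the replicate number as a block (replicate block) 84 genes were called (63 and 21); the numbers are not known to pair the libraries, since correlations of same-numbered WT and KO libraries ran from -0.204 to 0.28 and 2 of 6 matched best with their own number.

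Signs reversed for 5 genes that were not called. Smad6 was at 0.0332, 0.0003 and 0.0379 with limma on log2(FPKM + 1), log2(FPKM + 0.1) and log2(TPM + 1). With libraries left out in turn Smad6 ran from -0.270 to 0.175, Cyp8b1 from -0.294 to 0.762, Nr1h4 from -0.045 to 0.198, Hamp2 from -0.165 to 0.681 and Id3 from -0.188 to 0.374, and Id3 was at -0.307 without KO AC 1 and KO FAC 4. Of 2114 gene and setting pairs, 1671 kept direction and side of the threshold, 415 lost a call and 10 gained one. The SE of a difference, with a median of 0.167, limits what could be called at 3 libraries a group.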

Other observations

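The 3 gene groups described here were chosen after the values were seen, so their counts describe and support nothing. Genes of retinoid metabolism and signalling had 6 of 21 tested members with a called difference, 5 above and 1 below. Cyp26a1, the enzyme that breaks down retinoic acid, was at 2.18, 2.0 and 3.12 CPM in WT AC, 0, 0.0548 and 0.0574 in WT FAC, 0.516, 0.886 and 0.64 in KO AC and 1.16, 0.850 and 0.931 in KO FAC. It was nearly absent from WT FAC and present in KO FAC (adjusted p = 0.000331), and its fitted fold depends on the prior count. The retinoic acid receptor Rarb went from 4.45 to 0.321 CPM in WT and from 2.58 to 1.74 CPM in KO (difference 3.21 ± 0.54, adjusted p = 0.00944). The receptor Rarg had a difference of 0.66 ± 0.17 (adjusted p = 0.0495), lost without each library (adjusted p up to 0.14).

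Genes of the cornified envelope, the protein shell of skin cells to which Sprr1a and Sprr1b belong, had 7 of 14 tested members called, all above, and a median difference of 0.91. Lor went from 0.436 to 0.469 CPM in WT and from 0.568 to 2.39 CPM in KO (difference 1.96 ± 0.40, adjusted p = 0.0237), lost without each library but KO AC 1/2 and KO FAC 4/6 (adjusted p up to 0.0673). Lce1g had a difference of 1.12 ± 0.26 (adjusted p = 0.0388), lost without each library but WT AC 1/2, KO AC 1/2 and KO FAC 4 (adjusted p up to 0.126). Other members were not called, with differences of -0.22 for Lce1f and -0.10 for Tgm1. Guanylate-binding and immunity-related GTPases had 10 of 11 differences below 0, with a median of -0.58 (-0.29 without KO AC 1 and KO FAC 4) and 3 called, Gbp6, Gbp9 and Igtp. Gbp9 went from 4.74 to 4.41 CPM in WT and from 5.39 to 1.86 CPM in KO (difference -1.43 ± 0.32, adjusted p = 0.0328), lost without each library but WT AC 1, KO AC 1/2 and KO FAC 4/5 (adjusted p up to 0.0917). In KO 8 of the 11 fell, and in WT 2 did.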
